A study of Mus musculus with 8 samples.

Results

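The genes of the proteasome, the complex that degrades ubiquitin-tagged proteins, were followed through early B-cell development and after loss of the ETS transcription factor Erg. Members were all protein-coding genes whose symbol is Psma, Psmb, Psmc, Psmd, Psme, Psmf or Psmg followed by a number and nothing else, which gave 48 of the 27179 genes in the count table. Of these, 5 (Psmb8, Psmb9, Psmb10, Psme1 and Psme2) are the immune subunits and 43 are the others, here called constitutive, although they include caps, assembly chaperones and an inhibitor. Cells were sorted from mouse bone marrow by flow cytometry and their RNA sequenced. Control mice were Erg fl/fl, with floxed Erg alleles and no Cre, and gave cells of 3 stages, pre-proB, proB and preB. The fourth group was pre-proB cells of Rag1CreT/+;ErgΔ/Δ mice, in which Cre under Rag1 control deletes Erg from common lymphoid progenitors onwards. Mice were 7 to 10 weeks old, and each of the 4 groups had 2 biological replicates. The study's methods name 2 mice of each genotype, so libraries of the 3 control stages may come from the same animals, but no source used here ties a replicate number to a mouse. Since Rag1CreT/+ was present only in the Erg-deleted group, effects of Cre and of Erg loss cannot be told apart. Libraries held between 15565381 and 18457632 counts. Erg itself stood at 69.1 and 25.3 CPM (counts scaled to library size) in control pre-proB cells and at 2.50 and 2.58 CPM in Rag1CreT/+;ErgΔ/Δ ones, as labelled.

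The sorted populations were checked against marker genes, since what else is in a gate bears on every bulk value. A list of 12 B-lineage markers summed to between 1021 and 2142 CPM in Erg fl/fl pre-proB cells, 5489 and 5746 CPM in proB cells, and 7808 and 8447 CPM in preB cells. Both pre-proB groups also held RNA of plasmacytoid dendritic cells, with 8 markers summing to between 9399 and 10007 CPM in Erg fl/fl and between 10921 and 11174 CPM in Rag1CreT/+;ErgΔ/Δ cells, against 318 to 345 CPM in proB and 210 to 214 CPM in preB cells. No marker of either list was at 0 in any group. The 2 control pre-proB libraries differed in B-lineage markers, which were a median of 2.56 times higher in replicate 1, while the 42 constitutive proteasome genes that passed the filter on low counts differed by a median ratio of 0.972 and the 5 immune ones by 0.887. In bulk RNA, fewer cells of a type and less RNA per cell cannot be told apart.

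The proteasome is a barrel, the 20S core, closed at its ends by caps. The outer rings of the core are made of alpha subunits (Psma genes) and the inner rings of beta subunits (Psmb genes), of which Psmb5, Psmb6 and Psmb7 carry the cutting sites. The 19S cap recognises ubiquitin and unfolds substrates with a ring of ATPases (Psmc genes) and a set of non-ATPase subunits (Psmd genes). In lymphoid and dendritic cells, and after interferon, Psmb8, Psmb9 and Psmb10 take the places of the constitutive cutting subunits and form the immunoproteasome, and Psme1 and Psme2 form the PA28 activator. Both are known for making peptides for MHC class I.

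The promoters of members that moved in opposite directions are shown here for later reference. The sequences are from RefSeq (GRCm38.p6, the build of the files), are written 5′ to 3′ on the strand of the named gene, and end at the base before the transcription start. Psmb9 lies on chromosome 17 (34182030 to 34187330), and its start site is separated by 225 bases from that of Tap1, a peptide transporter gene read in the opposite direction. The stretch shown for Psmb9 is this whole shared interval (chr17:34187331-34187555, minus strand), with a CCAAT box on the reverse strand in capitals. For Psmb8, which follows Tap1 on the same chromosome (34198195 to 34201454), 120 bases (chr17:34198075-34198194, plus strand) are shown with an interferon-gamma-activated site in capitals. For Psmb5, its constitutive counterpart on chromosome 14, the stretch (chr14:54617996-54618115, minus strand) has an antioxidant response element in capitals. Psmc1 (chr12:100110082-100110201, plus strand) and Psme4 (chr11:30771655-30771774, plus strand), the genes with the largest rises described below, have the ETS core in capitals.
Psmb9: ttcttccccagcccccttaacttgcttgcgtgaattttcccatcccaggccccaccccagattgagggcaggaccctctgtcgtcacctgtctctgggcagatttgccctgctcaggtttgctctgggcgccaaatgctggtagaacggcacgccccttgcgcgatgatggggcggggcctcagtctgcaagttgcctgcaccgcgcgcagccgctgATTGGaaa
Psmb8: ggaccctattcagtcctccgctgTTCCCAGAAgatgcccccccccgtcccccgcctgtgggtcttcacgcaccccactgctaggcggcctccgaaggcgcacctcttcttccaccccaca
Psmb5: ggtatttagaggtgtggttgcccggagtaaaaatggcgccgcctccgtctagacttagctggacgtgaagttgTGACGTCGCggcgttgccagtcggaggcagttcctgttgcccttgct
Psmc1: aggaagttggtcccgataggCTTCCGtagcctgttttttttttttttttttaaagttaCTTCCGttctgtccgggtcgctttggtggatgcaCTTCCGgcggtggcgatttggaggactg
Psme4: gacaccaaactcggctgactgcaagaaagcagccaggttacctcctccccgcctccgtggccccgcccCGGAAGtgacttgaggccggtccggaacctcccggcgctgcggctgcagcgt

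The windows searched ran from 250 bases before to 50 bases after the start site and were available for 40 of the 48 members, that is all 5 immune and 35 constitutive ones. The ETS core CGGAAG, the letters that ETS factors such as Erg recognise, was found on either strand in 22 of the 35 constitutive and in 0 of the 5 immune promoters, and in 18.8% of the 27025 genes with a window. It occurs 3 times in the printed Psmc1 stretch, each time as the reverse complement CTTCCG. The interferon-stimulated response element GAAANNGAAA was in 1 immune promoter (Psme1) and 4 constitutive ones, against 3.99% of all genes. The gamma-activated site TTCNNNGAA was in 1 immune (Psmb8) and 2 constitutive promoters, against 9.55%. The antioxidant response element TGACNNNGC, read by Nfe2l1 and Nfe2l2, was in 0 immune and 6 constitutive promoters, against 14% of all genes. Of 3 further motifs searched on both strands, GGGANNNNCC (a kappaB site) was in 0 immune and 9 constitutive promoters and in 22.9% of genes, CCAAT in 1 and 13 and in 41.1%, and GCGCATGC (a nuclear respiratory factor site) in 0 and 3 and in 3.05%. These matches describe letters in a window. The study's Erg ChIP-seq of proB cells was not used here, so binding at these promoters was not examined.

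Levels of different genes were compared as FPKM, here the CPM of a gene divided by its summed exon length in kilobases. In Erg fl/fl pre-proB cells the activator genes Psme1 and Psme2 had the highest levels of all members. Psme1 was at 260 and 293 FPKM and Psme2 at 193 and 228 FPKM, above every constitutive member, of which the highest was Psma7 at 122 and 133 FPKM. Psmb10, at 84.4 and 88.5 FPKM, lay below Psma7 and several other constitutive members. The median was 83.9 FPKM for the 8 alpha subunits, 97.4 FPKM for the 4 beta subunits with no active site, 51.8 FPKM for the 6 ATPases and 50.4 FPKM for the 11 non-ATPase subunits. Assembly factors were lower, with medians of 16.1 FPKM for the 4 chaperones of the core and 10.5 FPKM for the 3 of the 19S cap. The filter on low counts (0.5 CPM reached by 2 or more libraries) was passed by 47 members. The exception was Psmb11, the cutting subunit of thymic epithelium, which was at 0 or under the level of 3 counts in every library. Psma8, the alpha subunit of germ cells, was between 0.0687 and 0.839 FPKM and is left out of the ranges below where stated.

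From pre-proB to proB cells of Erg fl/fl mice, the proteasome genes split by class. All 5 immune subunits fell, with log2 fold changes from -0.85 to -0.50, while 37 constitutive members rose and 0 fell, by up to 1.40 on the log2 scale. Of the 13650 genes tested in this comparison, 73% passed the test in either direction, 36.2% were called higher and 36.8% lower, against 78.7% and 10.6% of the 47 members tested. The median log2 fold change was -0.69 for the immune subunits, 0.52 for the 42 constitutive ones tested and 0.00 over all genes. Genes were called where edgeR's quasi-likelihood p, adjusted by Benjamini-Hochberg over all genes tested, was below 0.05.

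**Figure D1:**
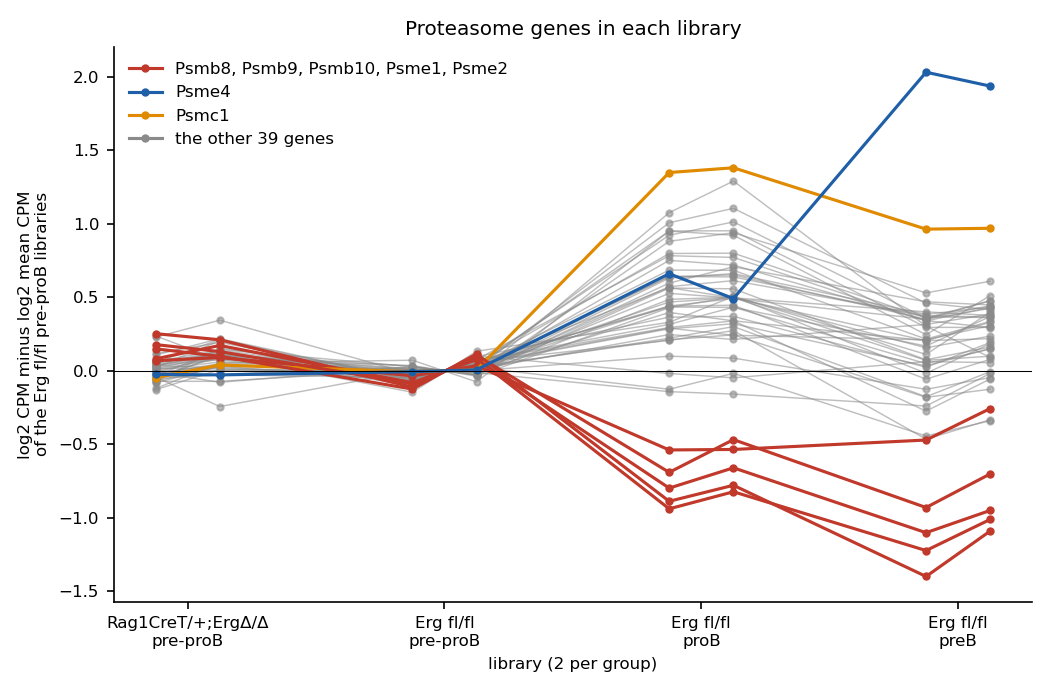
Level of 46 proteasome genes in each library, as log2 CPM relative to the control pre-proB mean (Psmb11 and Psma8 are left out for low counts). Each line is a gene and each point a library, 2 per group. The 5 immune subunits (red) lie below the pre-proB level in every proB and preB library, Psmc1 (orange) is the highest line in proB cells, and Psme4 (blue) is the highest in preB cells. Grey lines are the other 39 genes.

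Among the immune subunits, Psme1 and Psme2, which together form the PA28 ring that opens the core, fell most. Psme1 (chromosome 14, 55578494 to 55581527) went from 260 and 293 FPKM in pre-proB to 144 and 156 FPKM in proB cells, 55.6% of the earlier level (log2 fold change -0.85 ± 0.09 SE, edgeR adjusted p = 5.04e-05). Psme2 (55587440 to 55591101), with Emc9 between it and Psme1, went from 193 and 228 to 114 and 123 FPKM (-0.80 ± 0.11, edgeR adjusted p = 0.000246). Each proB library was below both pre-proB libraries for both genes, in a comparison where 73% of all genes were called. How many of all genes separate in this way was not counted. A near-copy, Psme2b, has no entry in the count table, and no source used here says how reads matching both were treated, so the Psme2 values may include reads of it. Exons of Psme1 and Emc9 overlap on opposite strands in the annotation, so reads of these genes may be shared as well.

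The immune cutting subunits fell less. Psmb8, which replaces Psmb5 at the chymotrypsin-like site, went from 164 and 183 FPKM to 99.9 and 110 FPKM (log2 fold change -0.69 ± 0.09, edgeR adjusted p = 0.000106). Psmb9, which replaces Psmb6, went from 103 and 120 to 68.9 and 80.4 FPKM (-0.54 ± 0.11, edgeR adjusted p = 0.0021). Psmb10, which replaces Psmb7, went from 84.4 and 88.5 to 59.5 and 59.6 FPKM (-0.50 ± 0.08, edgeR adjusted p = 0.000405). For none of the 5 immune genes did the pre-proB and proB libraries overlap, but the share of all genes without overlap was not counted. All 5 fell in each of the 18 alternative analyses and stayed called lower in each that kept all libraries.

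The cutting subunits that they replace rose over the same step. Psmb7 showed the largest rise, from 72.2 and 80.5 to 131 and 130 FPKM (log2 fold change 0.81 ± 0.07). Psmb6 went from 94.6 and 109 FPKM to 131 in both proB libraries (0.40 ± 0.08), and Psmb5 from 43.7 and 53.0 to 60.8 and 68.7 FPKM (0.45 ± 0.11). The rise of Psmb5 was the least secure of these, since its adjusted p went from 0.0065 to 0.0581 without Erg fl/fl pre-proB replicate 1 and to 0.0641 without proB replicate 2 (edgeR).

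Within a library, the immune subunits can be set directly against their counterparts. Averaged over the 3 cutting sites, the log2 ratio of immune to constitutive FPKM was 0.75 and 0.69 in control pre-proB libraries, 0.83 and 0.77 in the Rag1CreT/+;ErgΔ/Δ pre-proB libraries, -0.45 and -0.39 in proB and -0.23 and -0.19 in preB libraries. Put as a share, immune subunits made up 62.5% and 61.8% of the cutting-subunit FPKM in Erg fl/fl pre-proB cells, 64.0% and 63.1% in Rag1CreT/+;ErgΔ/Δ pre-proB cells, 41.4% and 43.1% in proB cells and 44.9% and 45.7% in preB cells. Both pre-proB groups thus held more immune than constitutive cutting-subunit RNA, and both later stages held less. The mean log2 ratio changed by -1.14 from pre-proB to proB cells, with SDs of 0.0451 and 0.0457 between replicates. An exact two-sided permutation test gave p = 0.333, the smallest that 2 libraries against 2 allow, so this test could not pass 0.05. Psmb8 stayed the more abundant partner at its site throughout, at 79.0% and 77.6% of the Psmb8 and Psmb5 sum in Erg fl/fl pre-proB and 62.2% and 61.6% in proB cells, whereas Psmb9 and Psmb10 passed from above to below their partners. The shares depend on the exon lengths used, but differences between groups in the log2 ratio of a pair do not.

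**Figure D2:**
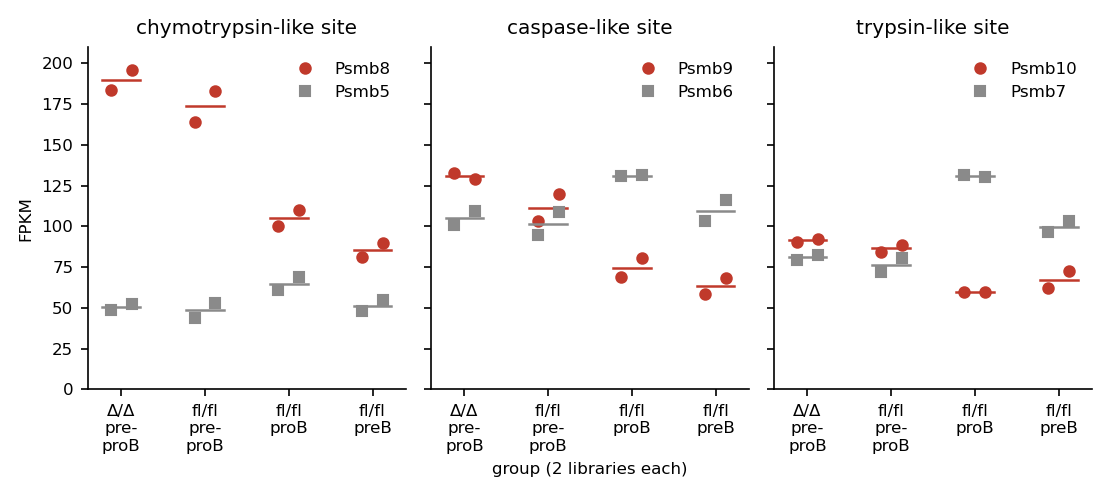
FPKM of each immune cutting subunit (red circles) and the constitutive subunit of the same site (grey squares) in every library, with bars at the mean of the 2 libraries of a group. In proB cells Psmb9 and Psmb10 lie below their grey partners at 131 FPKM, while Psmb8 stays above Psmb5 in all 4 groups.

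The rest of the core rose as well. Of the 8 alpha subunits 7 were called higher, with a median log2 fold change of 0.41, and the exception was the nearly silent Psma8 (0.09 ± 0.46). Psma6 rose most, from 101 and 97.1 to 183 and 190 FPKM (0.94 ± 0.06, edgeR adjusted p = 1.96e-06), and Psma7 went from 122 and 133 to 147 and 154 FPKM (0.27 ± 0.07, edgeR adjusted p = 0.0086). Without Erg fl/fl pre-proB replicate 1 or without proB replicate 2, Psma7 was no longer called (edgeR adjusted p = 0.108 and 0.0862). All 4 beta subunits with no active site rose by similar amounts, between 0.30 and 0.41. Psmb3 went from 109 and 120 to 142 and 154 FPKM (0.41 ± 0.08), Psmb1 from 80.8 and 86.6 to 102 and 98.9 FPKM (0.30 ± 0.07) and Psmb2 from 89.4 and 91.8 to 106 and 112 FPKM (0.30 ± 0.07). The call for Psmb2 was lost without proB replicate 2 (edgeR adjusted p = 0.0683).

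The 19S cap rose as a whole, with all 17 subunits called higher and a median log2 fold change of 0.68, against 0.40 for the 15 constitutive subunits of the core. Its ATPase ring includes the gene with the largest rise of all members, Psmc1, which went from 49.2 and 49.7 to 126 and 129 FPKM, 2.64-fold (log2 fold change 1.40 ± 0.06, edgeR adjusted p = 1.08e-07). The other 5 ATPases rose by between 0.40 and 0.83 on the log2 scale, so that Psmc1 moved from below the median of the ring to its highest member. Among the 11 non-ATPase subunits, Psmd1, a scaffold of the cap, went from 35.1 and 36.6 to 69.3 and 69.4 FPKM (0.99 ± 0.06, edgeR adjusted p = 8.52e-07), and Psmd13 from 43.4 and 43.8 to 68.0 and 68.5 FPKM (0.68 ± 0.06). The pre-proB and proB libraries did not overlap for any of the 17, in a comparison where 73% of all genes were called. The share of all genes without overlap was not counted.

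Other caps and assembly factors were more varied. Psme3, the nuclear PA28 gamma activator and a relative of Psme1 and Psme2, rose 2.13-fold, from 48.9 and 50.0 to 99.3 and 106 FPKM (1.09 ± 0.06, edgeR adjusted p = 8.71e-07). Members of this activator family thus moved in opposite directions between the same libraries. Psme4, the large PA200 activator, rose from 21.0 and 21.2 to 33.4 and 29.7 FPKM (0.61 ± 0.08, edgeR adjusted p = 9.27e-05). Psmg1 and Psmg2, which pair up to start the alpha ring, rose from 11.3 and 10.9 to 23.4 and 27.1 FPKM (1.22 ± 0.12) and from 15.6 and 14.1 to 28.6 and 28.1 FPKM (0.97 ± 0.11). Psmd5, a chaperone of the ATPase ring, rose from 9.30 and 10.2 to 13.2 and 13.1 FPKM (0.47 ± 0.09). The 5 members that were not called, named after their values were seen, were Psma8, the core chaperone Psmg4 (-0.04 ± 0.11), the cap chaperones Psmd9 (0.13 ± 0.08) and Psmd10 (0.00 ± 0.09), and the inhibitor Psmf1 (-0.12 ± 0.08).

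**Figure D3:**
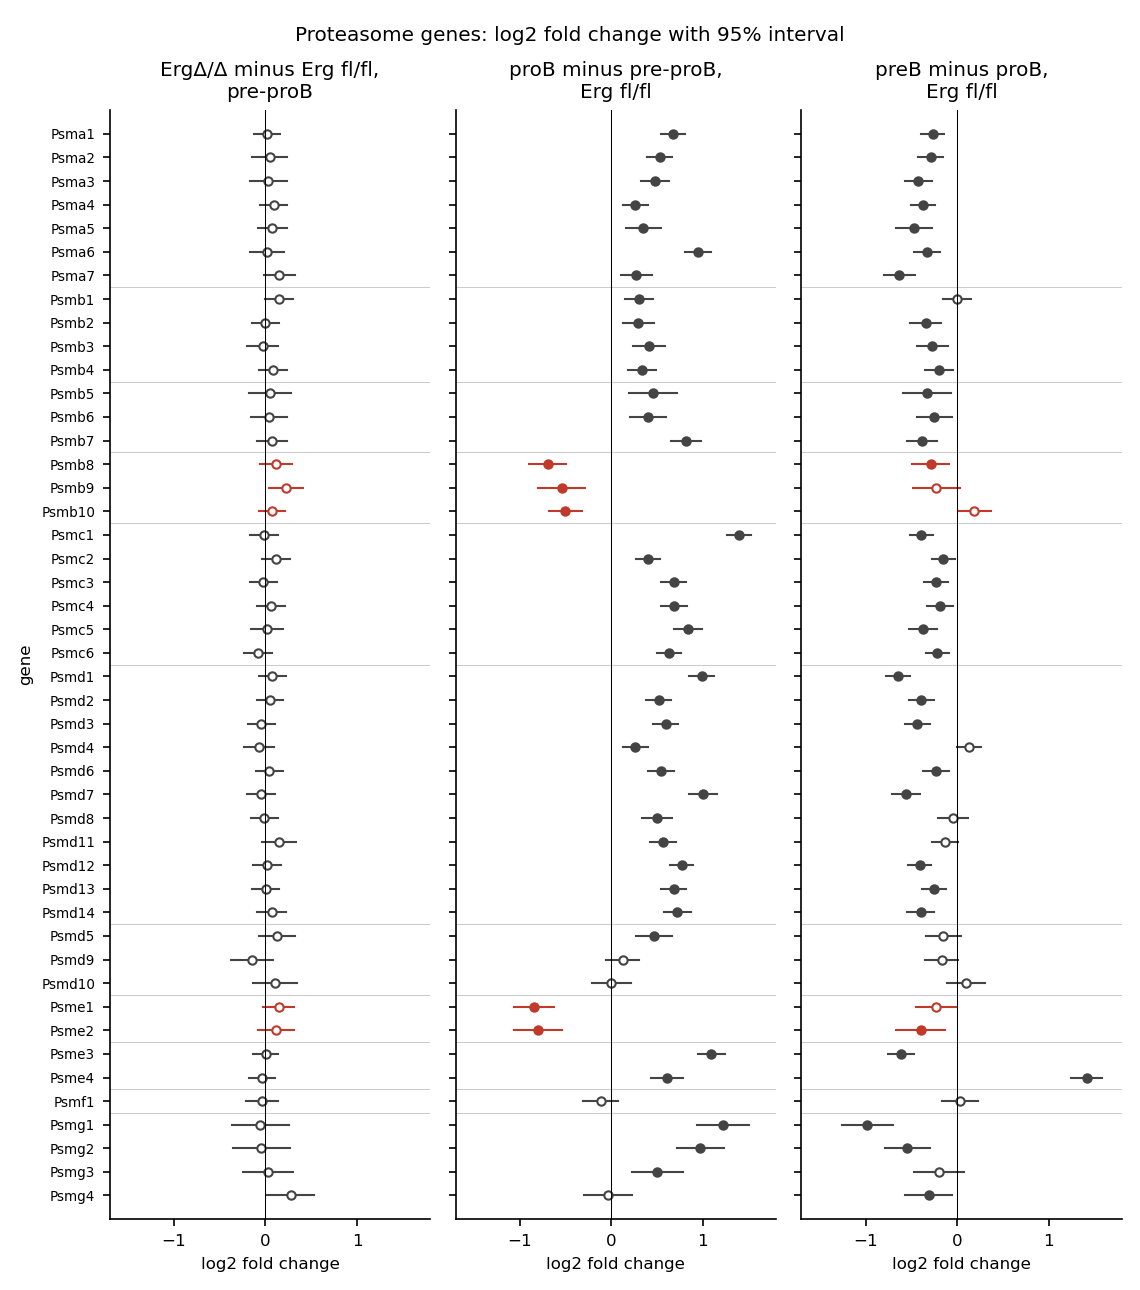
Log2 fold change (point) and 95% interval (line) of 46 proteasome genes, ordered by role, in 3 comparisons (Psmb11 and Psma8 left out). Filled points were called at an edgeR adjusted p below 0.05, and red marks the immune subunits. No point is filled for Rag1CreT/+;ErgΔ/Δ against Erg fl/fl pre-proB cells, the middle panel has the 5 red points on the left and 37 dark ones on the right, and in the right panel most points lie below 0 apart from Psme4 at 1.41.

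From proB to preB cells most members fell. In this comparison 34 members were called lower and 1 higher, where 29.9% of all genes tested were called lower, 29% higher and 58.9% in either direction. The median log2 fold change was -0.29 over the 47 members and -0.00 over all genes. Of the 37 members that had risen from pre-proB to proB, 30 fell again, 6 passed no test in this step and 1, Psme4, rose further. These 37 were picked for high values in the same proB libraries that are the reference here, which by itself favours a fall. The share of all genes that rose and then fell was not counted. All 8 alpha subunits fell. Psma7 had the lowest p among them, going from 147 and 154 to 92.1 and 101 FPKM (-0.63 ± 0.07, edgeR adjusted p = 0.000158). Psma8 was at 0.710 and 0.790 FPKM in proB and 0.0687 and 0.400 FPKM in preB cells (-1.64 ± 0.55, edgeR adjusted p = 0.0311), a difference that rests on few counts. The call for Psma8 was lost with DESeq2 (adjusted p = 0.0811), without either proB replicate (edgeR adjusted p = 0.0688 and 0.109) and without preB replicate 1 (0.12), and its log2 fold change was -0.89 without preB replicate 1 and -3.41 without preB replicate 2. Psmb2 went to 80.2 and 90.3 FPKM (-0.34 ± 0.07), Psmb7 to 96.6 and 103 FPKM (-0.38 ± 0.07) and Psmc1 to 96.4 and 96.8 FPKM (-0.39 ± 0.06).

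This comparison shares its proB libraries with the one before. Psmg1, which was called lower, went to 13.7 and 11.8 FPKM (log2 fold change -0.98 ± 0.12), against pre-proB values of 11.3 and 10.9 FPKM (preB minus pre-proB 0.24, 95% interval -0.05 to 0.54). Psmd1 fell to 44.0 in both preB libraries (-0.65 ± 0.06) and Psme3 to 68.0 and 65.9 FPKM (-0.61 ± 0.06). All 6 ATPases and 8 of the 11 non-ATPase subunits were called lower, none of either set was called higher, and the largest rise among those not called was Psmd4, at 0.13 ± 0.06. Psmb1 was at 102 and 98.9 FPKM in proB and 96.8 and 104 FPKM in preB cells (0.00 ± 0.07).

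Of the 5 immune subunits, 2 were called lower in this step and 3 were not called, and their changes were not tested against each other. Psmb8 was at 80.9 and 89.9 FPKM in preB cells (-0.29 ± 0.09, edgeR adjusted p = 0.0207) and Psme2 at 79.8 and 98.9 FPKM (-0.40 ± 0.12, edgeR adjusted p = 0.0181), and both were called lower. Both calls were lost without proB replicate 2 (edgeR adjusted p = 0.117 and 0.0875) or without preB replicate 1 (0.136 and 0.128). Psme1 at 118 and 137 FPKM (-0.23 ± 0.10, edgeR adjusted p = 0.0714) and Psmb9 at 58.4 and 68.4 FPKM (-0.23 ± 0.11, edgeR adjusted p = 0.112) were not called. Psmb10 was at 62.3 and 72.3 FPKM against 59.5 and 59.6 FPKM in proB cells (0.18 ± 0.08, edgeR adjusted p = 0.0728). With the replicate number as a block, Psme1 and Psmb9 were called lower and Psmb10 higher (edgeR adjusted p = 0.00848, 0.00568 and 0.04). The ratio of Psmb10 to Psmb7 differed by 0.56 on the log2 scale between the stages, with SDs of 0.0106 and 0.0856, and those of the other 2 pairs by 0.04 and 0.02.

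Psme4 had a course of its own. This activator stands apart from the 19S cap in that it opens the core without ATP, and it is best known from the testis, where it takes part in the removal of acetylated histones. Its level was 20.8 and 20.7 FPKM in Rag1CreT/+;ErgΔ/Δ pre-proB, 21.0 and 21.2 FPKM in Erg fl/fl pre-proB, 33.4 and 29.7 FPKM in proB and 86.3 and 80.8 FPKM in preB cells. It rose 2.66-fold from proB to preB cells (log2 fold change 1.41 ± 0.08, edgeR adjusted p = 4.22e-06) and 4.07-fold from pre-proB to preB cells (2.03 ± 0.08, edgeR adjusted p = 7.31e-08). Across the 18 alternative analyses the proB to preB change ranged from 1.32 to 1.49. As a result the order of the caps changed with stage. In Erg fl/fl pre-proB cells Psme1 and Psme2 were above Psme3 and Psme4 in every library, and in preB cells Psme4 was above Psme3 and overlapped Psme2.

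**Figure D4:**
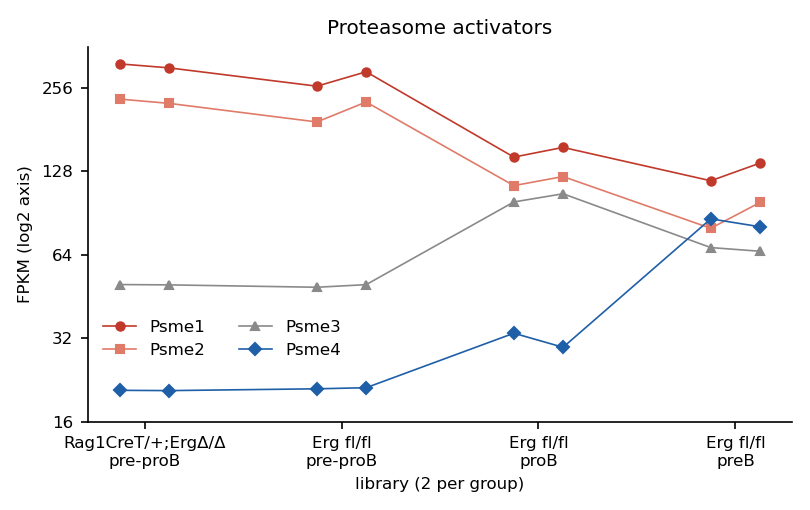
FPKM, on a log2 axis, of the 4 activator genes in each library (2 per group, joined by lines for reading only). Psme1 and Psme2 are lower in proB and preB than in pre-proB cells, Psme3 is highest in proB cells, and Psme4 reaches 86.3 and 80.8 FPKM in preB cells.

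Net of both steps, from pre-proB to preB cells of Erg fl/fl mice, 25 members were called higher and 8 lower, where 36.5% of all genes tested were called higher, 34.1% lower and 70.7% in either direction. This comparison shares its libraries with the 2 before it. The 8 were the 5 immune subunits, Psma7 (log2 fold change -0.36 ± 0.07), Psma8 (-1.55 ± 0.57) and Psmg4 (-0.35 ± 0.11). Psmg4, a core chaperone, was at 27.1 and 27.9 FPKM in pre-proB and 20.2 and 21.7 FPKM in preB cells, and its call was lost with DESeq2 (adjusted p = 0.0523) and without preB replicate 1 (edgeR adjusted p = 0.114). The call for Psma8 was lost with DESeq2 (adjusted p = 0.0842) and without pre-proB replicate 1, proB replicate 1 or preB replicate 1 (edgeR adjusted p = 0.0883, 0.0518 and 0.142), and its log2 fold change was -0.79 without preB replicate 1 and -3.30 without preB replicate 2. Psme2 ended at 43.7% of its pre-proB level, Psme1 at 47.6%, Psmb8 at 50.6%, Psmb9 at 58.7% and Psmb10 at 80.2%. In the 19S cap 16 of 17 subunits were called higher, with a median of 0.41, while 5 of the 15 constitutive core subunits were called higher and 2 lower, with a median of 0.13. Psmc1 was 2.01-fold higher (1.01 ± 0.06), Psma6 was at 143 and 151 FPKM (0.61 ± 0.06) and Psmg2 at 17.6 and 21.1 FPKM (0.43 ± 0.12).

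Sums over members were compared between groups and not with each other, since the constitutive set holds 43 genes and the immune set 5. The 43 constitutive members summed to 3400 and 3521 CPM in Erg fl/fl pre-proB, 3494 and 3653 CPM in Rag1CreT/+;ErgΔ/Δ pre-proB, 5108 and 5177 CPM in proB and 4406 and 4566 CPM in preB cells. The 5 immune genes went the other way, from 995 and 1124 CPM and 1173 and 1170 CPM in the pre-proB groups to 605 and 659 CPM in proB and 502 and 583 CPM in preB cells. A list of 12 proliferation markers moved alongside the constitutive sum, at 1743 to 1929 CPM in Erg fl/fl pre-proB, 7721 to 7937 CPM in proB and 4759 to 5550 CPM in preB cells. All 12 were called higher in proB than in pre-proB cells and all 12 lower in preB than in proB cells. Their part in the result was not tested.

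Loss of Erg was accompanied by no called change of any proteasome gene in pre-proB cells. Of the 47 members tested, 0 were called in Rag1CreT/+;ErgΔ/Δ against Erg fl/fl cells (edgeR). Over the 13005 genes tested, 1.16% were called in either direction, 0.215% higher and 0.946% lower. A count of 0 among 47 is near this share and is not particular to these members. An unadjusted edgeR p below 0.05 was reached by 2 members and by 1624 of all genes tested. No member was called by DESeq2, limma-voom or any other of the 16 alternatives either. Log2 fold changes ran from -0.15 to 0.28, with a median of 0.04 for the members and 0.01 for all genes. The 2 members with a low unadjusted p were Psmb9, at 133 and 129 FPKM against 103 and 120 FPKM (0.22, 95% interval 0.04 to 0.41, edgeR adjusted p = 0.31), and Psmg4, at 32.2 and 34.9 FPKM against 27.1 and 27.9 FPKM (0.28, 95% interval 0.01 to 0.54, edgeR adjusted p = 0.375). Psmb8 was at 184 and 196 FPKM (0.12, 95% interval -0.06 to 0.29), Psmb10 at 90.6 and 92.0 FPKM (0.07, -0.07 to 0.21), Psme1 at 313 and 303 FPKM (0.14, -0.03 to 0.32) and Psme2 at 233 and 225 FPKM (0.11, -0.08 to 0.31). Over the 41 constitutive members without Psma8, no 95% interval reached below -0.38 or above 0.54. The interval of Psma8, from -0.89 to 0.84, is wider because of its low counts.

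The 42 constitutive members tested differed between genotypes by log2 fold changes from -0.15 to 0.28, with a median of 0.03. Psmb5 was at 48.9 and 52.1 FPKM, Psmb6 at 101 and 109 FPKM and Psmb7 at 79.4 and 82.5 FPKM in Rag1CreT/+;ErgΔ/Δ cells, each overlapping the Erg fl/fl libraries. Other constitutive members, among them Psmd1, Psmd11 and Psmg4, did not overlap. The share of all genes without overlap was not counted. Psmc1 was at 47.8 and 50.8 FPKM (-0.02, 95% interval -0.17 to 0.14) and Psme3 at 50.0 and 49.9 FPKM. In the same comparison 9 of 12 B-lineage markers were called lower and 4 of 7 natural killer cell markers higher, with B-lineage sums of 384 to 495 CPM in Rag1CreT/+;ErgΔ/Δ cells and natural killer sums of 253 to 377 CPM against 203 to 205 CPM. Of the natural killer sums, Klrd1 alone was at 164 and 220 CPM in Rag1CreT/+;ErgΔ/Δ cells, against 174 CPM in both Erg fl/fl libraries. None of the 8 plasmacytoid dendritic cell markers was called, but all 8 log2 fold changes were positive, with a median of 0.15. An unadjusted edgeR p below 0.05 was reached by 3 of the 8, and by 1624 of the 13005 genes tested. The part of such cells in these values was not tested.

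Genes that work with the proteasome but fall outside the naming rule were read from a list of 20, of which 19 were tested. From pre-proB to proB cells 16 were called higher and 0 lower, with a median log2 fold change of 0.46, where 36.2% of all genes were called higher and 73% in either direction. Largest by p were Usp14 (1.08), a deubiquitinase of the 19S cap, Txnl1 (0.97), a thioredoxin-like partner of the cap, Ubqln4 (0.82) and Rad23b (0.78), which shuttle ubiquitinated proteins, and Uchl5 (0.80), another deubiquitinase of the cap. Usp14 went from 53.8 and 52.6 CPM in control pre-proB to 111 and 109 CPM in proB and back to 65.3 and 67.1 CPM in preB cells. From proB to preB cells 12 of the 19 were called lower and 1 higher, against 29.9% and 29% of all genes, and the same 5 genes had the lowest p, with falls between -0.56 and -0.73. In Rag1CreT/+;ErgΔ/Δ against Erg fl/fl cells 0 of 19 were called, where 1.16% of all genes were.

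Regulators of proteasome gene transcription were read from a further list. Nfe2l1 is the factor that raises proteasome genes when degradation falls short, Ddi2 cuts it into its active form, and Mafg and Mafk are its small Maf partners. Of 7 such genes, 4 were called lower and 0 higher in proB than in pre-proB cells, where 36.8% of all genes were called lower and 73% in either direction. Nfe2l1 went from 139 and 143 to 78.7 and 76.6 CPM (-0.82), Ddi2 from 45.2 and 46.6 to 20.4 and 22.6 CPM (-1.06), Mafg from 18.0 and 17.5 to 6.17 and 7.56 CPM (-1.33), and Mafk from 82.8 and 81.4 to 47.6 and 49.3 CPM (-0.73). RNA of these 4 thus fell in the step in which 37 proteasome genes rose. All 4 remained called lower in preB than in pre-proB cells. Between genotypes 0 of the 7 were called, where 1.16% of all genes were.

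Genes of MHC class I peptide loading, which handle the peptides that the immunoproteasome makes, fell in the same step as the immune subunits. Of 11, 8 were called lower and 0 higher in proB cells, with a median log2 fold change of -0.76, where 36.8% of all genes were called lower and 73% in either direction. The steepest by p were Tapbp (-2.05), which bridges the peptide transporter to class I, Tap2 (-0.76), a subunit of that transporter, the class I genes H2-D1 (-0.94) and H2-K1 (-0.91), and Pdia3 (-0.83), a disulfide isomerase of the loading complex. Tap1, looked up because it shares its promoter interval with Psmb9, was at 344 and 400 CPM in pre-proB and 202 and 230 CPM in proB cells (-0.75), next to -0.54 for Psmb9. Exons of Psmb9 and Tap1 overlap on opposite strands in the annotation and no source used here gives the use of strand in counting, so reads near their start sites may be shared. From proB to preB cells the list split, with 4 called higher (Tapbp at 0.62, H2-D1 at 0.62, and H2-K1 and Tap2) and 4 lower (among them Canx at -0.78, Pdia3 at -0.75 and Erap1 at -0.47), where 29% of all genes were called higher, 29.9% lower and 58.9% in either direction. None of the 5 immune subunits was called higher in that step. Between genotypes 0 of 11 were called, where 1.16% of all genes were. All 11 log2 fold changes were positive in Rag1CreT/+;ErgΔ/Δ cells, from 0.02 to 0.28, with a median of 0.14 against 0.01 for all genes.

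Of 13 genes of interferon signalling, the pathway known to induce the immune subunits, 9 were called lower and 2 higher in proB than in pre-proB cells, with a median of -1.89, where 36.8% of all genes were called lower and 36.2% higher. Irf8 went from 3446 and 3982 to 196 and 210 CPM (-4.16), Ifnar1 from 503 and 509 to 102 and 103 CPM (-2.27), Stat2 from 535 and 602 to 75.9 and 73.0 CPM (-2.90), and Ifnar2 and Jak2 fell by 2.65 and 1.89 on the log2 scale. From proB to preB cells 8 were called higher and 1 lower, against 29% and 29.9% of all genes. Between genotypes 0 of 13 were called, where 1.16% of all genes were, and 12 of the 13 log2 fold changes were positive, with a median of 0.13. All 8 plasmacytoid dendritic cell markers were also called lower in proB than in pre-proB cells, with a median of -5.78, as were all 7 natural killer cell, all 7 T-cell and all 5 conventional dendritic cell markers. Other lists did not fall as a whole. Of 8 myeloid markers 3 were called higher and 2 lower, of 5 erythroid ones tested 4 higher and 0 lower, and of 4 plasma cell ones 2 higher and 1 lower. Myeloid markers summed to 173 to 214 CPM in control pre-proB and 154 to 364 CPM in proB cells. Natural killer markers summed to 203 to 205 CPM in control pre-proB and 10.9 to 14.5 CPM in proB cells. T-cell markers summed to 608 to 763 and 10.1 to 15.1 CPM. Conventional dendritic cell markers summed to 734 to 786 and 9.01 to 13.7 CPM. A few genes made up most of these control pre-proB sums. Klrd1 was at 174 CPM in both libraries, Cd4 at 474 and 614 CPM, and Cd8a at 112 and 121 CPM. Itgax was at 326 and 405 CPM, Clec9a at 232 and 238 CPM, and Cd209a at 174 and 140 CPM. Other markers of the same lists were far lower, such as Ncr1 at 2.12 and 2.92 CPM and Cd3g at 4.94 and 5.47 CPM. Xcr1 was at 0.578 and 1.28 CPM. Which cells this RNA came from was not tested. No marker of these lists was at 0 in either group. The part of such cells in the lower immune subunit levels of proB cells was not tested.

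**Figure D5:**
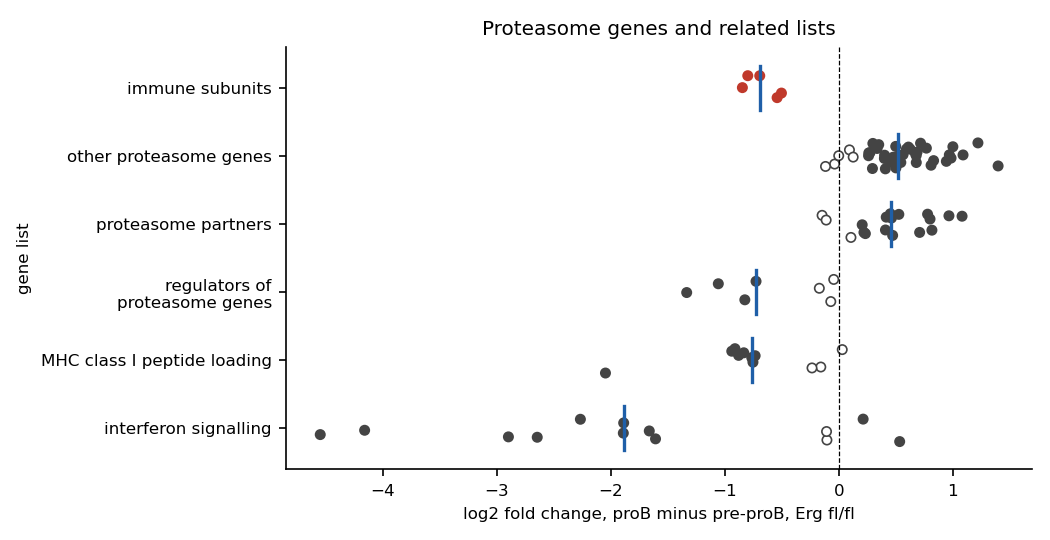
Log2 fold change from pre-proB to proB cells of Erg fl/fl mice for the immune subunits (red), the other proteasome genes and 4 related lists. Each point is a gene, filled where called at an edgeR adjusted p below 0.05, blue bars are the medians of the lists, and the dashed line is the median of all genes tested. Immune subunits, regulators, MHC class I loading genes and most interferon signalling genes lie to the left, and the other proteasome genes and their partners to the right.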

How the data were processed

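RNA of 8 libraries was sequenced by the authors, trimmed with Trim Galore, aligned to mm10 with STAR and counted with featureCounts, after base calling with CASAVA 1.8.2 per the submitters' processing notes. The deposited values are whole-number counts per Entrez Gene identifier, without normalization. No source used here gives the STAR settings, the use of strand or how multi-mapping reads were treated. Exons of 13 of the 48 members overlap another gene in GENCODE M21.

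Identifiers were matched to RefSeq symbols (25275 of 27179). TMM-scaled CPM and edgeR 4.0.16 quasi-likelihood tests (R 4.3.3, legacy setting) were computed here, with the 4 pre-proB libraries fitted together for genotype and the 6 Erg fl/fl libraries for stage, on genes that reached 0.5 CPM in 2 or more of them. FPKM used exon lengths of GENCODE transcripts tied to the same identifiers. Standard errors are log2 fold changes divided by the root of the F statistic, and intervals use the moderated degrees of freedom. DESeq2 1.42.0 and limma 3.58.1 served as alternatives. At these depths 3 counts are 0.163 to 0.193 CPM, which covers counting error only. In simulated data, 183 of 200 genes changed 2-fold were recovered among 12856 in the genotype design, with 24 false calls, 11.6% of all calls. Changes as small as those of the members between genotypes were not simulated.

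Members and lists were chosen with earlier results of these data known. Genes were named by rule: the cutting subunits, Psme1 to Psme4, and in each role and comparison the called gene with the lowest p in each direction, plus at most 5 called genes per list. The study's methods name 2 mice per genotype and the labels do not say which mouse gave which library, so libraries of different stages may share a mouse, and the fits without a block treat them as independent.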

Additional observations from a re-analysis of the deposited data

How the results depend on the processing

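With 2 libraries a group, the alternatives moved borderline calls and no direction of a called member named in the text. The number of members called ranged over 18 alternatives from 39 to 42 for proB against pre-proB (24 to 39 for preB against proB, 30 to 36 for preB against pre-proB) and was 0 in all 16 for genotype. Leaving out 1 library at a time gave 39 to 42, 24 to 39, 30 to 33 and 0 members, the lowest preB against proB count coming without proB replicate 2. The ratio of immune to constitutive cutting subunits then ranged from -1.17 to -1.11, from 0.18 to 0.24, from -0.96 to -0.90 and from 0.05 to 0.11, and with summed FPKM the preB against pre-proB ratio was -0.99 in place of -0.93. No source used here ties replicate numbers to mice, and deviations of same-numbered libraries correlated at 0.169, 0.0305 and 0.0908 between the Erg fl/fl stages and at 0.00594 between the genotypes, so that not every pair was over 0.1. With the replicate number as a block, 42, 38, 36 and 0 members were called, in the same order, and in preB against proB cells Psmb9, Psme1 and Psmb10 passed the test, as given above. Among the members named in the text, further calls lost were those of Psmb3, Psmb5 and Psmb6 for preB against proB and of Psmb1, Psmd5 and Psmg2 for preB against pre-proB, each without single libraries, and of Psmg4 for preB against proB, also with DESeq2. Psme1 was called lower in preB than in proB cells in 8 of 18 alternatives, Psmb9 lower and Psmb10 higher in 2 each. Genes at low counts, Psma8 and Psmb11, are limited by depth.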
